A study of Mus musculus with 2 samples.

Results

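The hedgehog genes described here are 9 core genes of one signalling pathway: the ligand gene Shh, the receptor genes Ptch1 and Boc, the ligand-binding inhibitor Hhip, the signal transducer Smo, the inhibitor Sufu and the transcription factor genes Gli1, Gli2 and Gli3. They were chosen by name, as the rows of the gene and transcript tables whose identifier carries one of these symbols in GENCODE M21. All 9 were found among 43346 genes, with 34 annotated transcripts between them. The tissue was midbrain dissected from healthy B6NCrl mouse embryos of both sexes at embryonic day 12.5, with no treatment or engineered allele named in the labels. The 2 libraries form 1 group. Replicate 1 was made from 120 pooled embryos and replicate 2 from another 88, so the only comparisons are among genes within the tissue and between the 2 pools. A pool averages over many embryos and over every cell type of the dissected piece. Fewer cells of a type and less RNA per cell cannot be told apart in such a sample.

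Hedgehog ligands are secreted, lipid-modified proteins. Without ligand, the receptor Patched keeps the membrane protein Smoothened inactive, and Gli3, together with part of Gli2, is cut into a repressor. When ligand binds Patched, Smoothened accumulates in the primary cilium, the full-length Gli proteins activate transcription, and Gli1, Ptch1 and Hhip are themselves induced, which makes their transcripts common readouts of the pathway. In the ventral midbrain Shh patterns progenitors, while the Gli3 repressor acts mainly in dorsal tissue.

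Replicates 1 and 2 held 28212913 and 36082574 estimated counts on genes. Of 10 genes that mark midbrain and isthmus, 9 were at 1 TPM or more in both libraries, and so were 10 of 11 forebrain and hypothalamus genes, but only 1 of 7 hindbrain genes. TPM, each gene's share of all transcripts on a fixed total, is a level per transcript length, so genes can be compared on it. Each TPM value was deposited with an interval whose level is not given in the sources used here.

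All 9 hedgehog genes were detected, at 1 TPM or more in both libraries. Their levels spanned from 2.54 ± 0.778 TPM for Hhip to 49.3 ± 9.69 TPM for Boc (SD, n = 2). The median of the 13006 protein-coding genes detected at that level was 21.9 TPM. Boc, Smo, Sufu and Gli3 stood above this median, and Ptch1, Gli2, Shh, Gli1 and Hhip below it. The 4 genes above it encode a co-receptor, the transducer, the cytoplasmic inhibitor and the main Gli repressor. Those below it include the ligand and all 3 genes known as induced readouts.

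**Figure D1:**
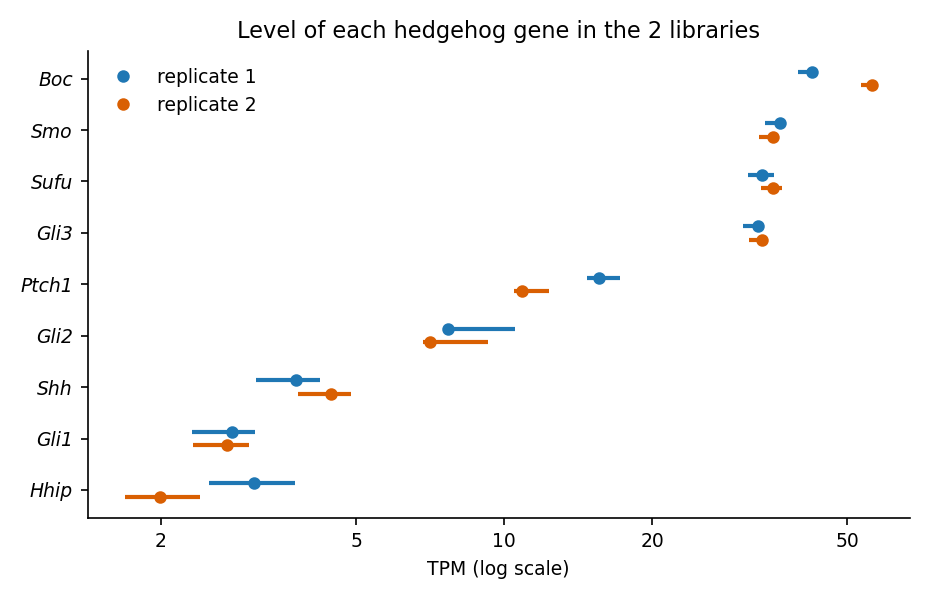
TPM of each hedgehog gene on a log axis in replicate 1 (blue) and replicate 2 (orange), with points for the deposited TPM and lines for its deposited interval, ordered by mean TPM. Smo, Sufu and Gli3 lie together between 32.9 and 36.5 TPM, and Ptch1, Hhip and Boc have intervals that do not meet between the libraries.

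The order by mean TPM was Boc, Smo, Sufu, Gli3, Ptch1, Gli2, Shh, Gli1 and Hhip. Neighbours in this order whose intervals did not meet in either library were Boc and Smo, Gli3 and Ptch1, Ptch1 and Gli2, Gli2 and Shh, and Shh and Gli1. Smo, Sufu and Gli3 could not be ordered by this criterion, nor could Gli1 and Hhip. Of the 36 pairs of hedgehog genes, 31 had intervals apart in both libraries, and 35 had the same order in both. The exception was Gli1 and Hhip, with Hhip higher in replicate 1 and Gli1 higher in replicate 2.

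Shh, the ligand gene of the set, had 3.76 and 4.44 TPM in replicates 1 and 2, from 173 and 258 estimated counts. The TPM intervals, 3.12 to 4.21 and 3.804 to 4.87 TPM, overlapped, so the 2 pools were not separated. A single Shh transcript was annotated in the files. The gene lies on chromosome 5 from 28456815 to 28467256 on the minus strand (mm10), where the noncoding genes 9530036O11Rik and Gm26894 overlap it on the other strand. These neighbours held 4.06 and 1.00 counts and 14.1 and 10.1 counts, and whether reads were counted by strand is not given in the sources used here.

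The other hedgehog ligands were near or under the detection level. Dhh, the ligand of Schwann cells and testis, had 0.650 and 1.01 TPM, and Ihh, the ligand of cartilage and gut, at 0.120 and 0.190 TPM. Shh held 80.9 ± 3.03% of the summed TPM of the 3 ligand genes (SD, n = 2).

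Of the 8 genes in the list of other ligands and of ligand processing and release, 6 were at 1 TPM or more in both libraries and Ihh was under 1 TPM in both. Disp2 was at 14.4 ± 0.375 TPM, Scube1 at 13.9 ± 1.89 TPM, Disp1, which exports the ligand from its source cell, at 10.3 ± 0.771 TPM and Scube3 at 8.32 ± 0.488 TPM. Scube2, a secreted protein that helps to release lipid-modified Shh, had 3.81 TPM in the first library and 1.43 TPM in the second. It was 2.69-fold lower in replicate 2 (exact binomial test, adjusted p = 2.74e-17), the only gene of this list that was called.

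Ptch1, the receptor that holds Smoothened inactive and is induced by the signal, had 15.6 and 10.9 TPM in replicates 1 and 2. The intervals were 14.7 to 17.2 TPM and 10.5 to 12.3 TPM, so replicate 2 was the lower library and the intervals did not meet. On counts scaled to library size, Ptch1 was 1.45-fold lower in replicate 2, a log2 ratio of -0.54 with a 95% interval of -0.63 to -0.44 (exact binomial test, adjusted p = 1.44e-26).

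Hhip, a membrane-anchored protein that binds the ligand and is also induced by the signal, had 3.09 and 1.99 TPM in replicates 1 and 2. Replicate 2 was again the lower library, and the intervals, 2.50 to 3.75 and 1.69 to 2.41 TPM, did not meet. The counts of 212 and 190 gave a 1.44-fold lower value in replicate 2, a log2 ratio of -0.53 with an interval of -0.82 to -0.24 (exact binomial test, adjusted p = 0.00235). The ratio of Ptch1 to Hhip was 5.05 in replicate 1 and 5.46 in replicate 2 on TPM.

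Gli1, another readout induced by the signal, was at 2.79 and 2.73 TPM from 176 and 218 counts. Its TPM intervals overlapped, and its log2 ratio was -0.06 with an interval of -0.35 to 0.23. This interval lies apart from that of Ptch1 and overlaps that of Hhip. The ratio of Ptch1 to Gli1 was 5.59 in replicate 1 and 3.98 in replicate 2 on TPM.

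Boc, a co-receptor of the immunoglobulin family that binds the ligand, was the most abundant hedgehog gene. Its level was 42.4 TPM in the first library and 56.1 TPM in the second. Here replicate 2 was the higher library, with intervals of 39.7 to 42.5 and 53.3 to 56.2 TPM that did not meet. The log2 ratio was 0.37 with an interval of 0.31 to 0.44, or 1.30-fold (exact binomial test, adjusted p = 7.40e-30). Boc was at 11.3 and 12.6 times the TPM of Shh in replicates 1 and 2.

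The related co-receptors Cdon and Gas1 had no detectable difference between the libraries by this test. Cdon, a paralogue of Boc, was at 15.6 and 18.5 TPM, and Gas1, a membrane-anchored co-receptor, at 99.1 and 100.2 TPM. On counts their log2 ratios were 0.05 and -0.02, with adjusted p of 0.594 and 0.764 in the exact binomial test. Gas1 held 60.2 ± 4.08% of the summed TPM of the 3 co-receptor genes, Boc 29.6 ± 3.62% and Cdon 10.2 ± 0.461% (SD, n = 2). Lrp2, an endocytic receptor that binds Shh, was at 5.47 and 4.61 TPM, a log2 ratio of -0.24 (exact binomial test, adjusted p = 0.000644). None of these 3 genes was called.

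Smo, which carries the signal across the membrane, was measured at 36.5 and 35.2 TPM, and the 2 libraries overlapped. Its log2 ratio was -0.08 with an interval of -0.16 to -0.00 (exact binomial test, adjusted p = 0.138). Smo stood at 2.34 times the TPM of Ptch1 in replicate 1 and 3.24 times in replicate 2.

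Among the Ptch1 transcripts at a mean of at least 1 TPM, Ptch1-201 had the largest ratio between the pools. Ptch1 lies on chromosome 13 from 63508328 to 63573598 on the minus strand (mm10), and 8 of its transcripts were listed. Ptch1-202 held 65.1% of the gene in replicate 1 and 78.1% in replicate 2, at 10.2 and 8.49 TPM with overlapping intervals. Ptch1-201 held 20.9% and 7.93%, at 3.25 TPM (interval 2.19 to 4.08) and 0.860 TPM (interval 0.499 to 1.42), a 3.78-fold difference with intervals apart. Ptch1-204, annotated as a target of nonsense-mediated decay, was at 1.5 and 1.24 TPM, with overlapping intervals. Summed over the transcripts other than Ptch1-201, the gene was at 12.3 and 10.0 TPM, a 1.23-fold difference. Because Ptch1-201 was picked for its ratio in these same libraries, a smaller difference without it was fixed in advance.

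These 3 long transcripts start from different first exons that join the same second exon. Ptch1-201 starts at 63565735, Ptch1-202 lies 1200 bases further downstream at 63564535, and Ptch1-204 starts 7725 bases upstream of Ptch1-201 at 63573460. The 30 bases across each junction, read from the GENCODE M21 transcripts, show how each first exon joins the next. The last 15 bases of exon 1 are in lower case and the first 15 bases of exon 2 in capitals.
Ptch1-201: gagcagatttccaagGGGAAGGCTACTGGC
Ptch1-202: ccgagcacaaatagtGGGAAGGCTACTGGC
Ptch1-204: ctgaggccggctatgGGGAAGGCTACTGGC

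The capitals are the same in all 3, so a read confined to exon 2 cannot tell them apart. In Ptch1-201 the first exon is partly coding. Its coding part, chr13:63565362-63565520 on the minus strand of mm10, is shown because Ptch1-202 lacks it, with the start codon in capitals.
Ptch1-201, coding part of exon 1: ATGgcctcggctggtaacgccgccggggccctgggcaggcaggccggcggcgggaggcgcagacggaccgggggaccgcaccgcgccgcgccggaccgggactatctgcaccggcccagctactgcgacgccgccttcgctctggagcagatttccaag

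This stretch is 159 bases. The annotated coding sequence of Ptch1-202 begins only in exon 3, at 63548126. Ptch1-201 and Ptch1-202 share 21 whole exons, but they also differ at the other end. Ptch1-202 splices out 419 bases, from 63511113 to 63511531, beyond the stop codon, and Ptch1-201 keeps them. Ptch1-204 also splices out a short intron inside what is exon 14 of Ptch1-201. The tables do not say whether the start, this 3′ intron or both set the estimated shares, so the difference cannot be assigned to a promoter.

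**Figure D2:**
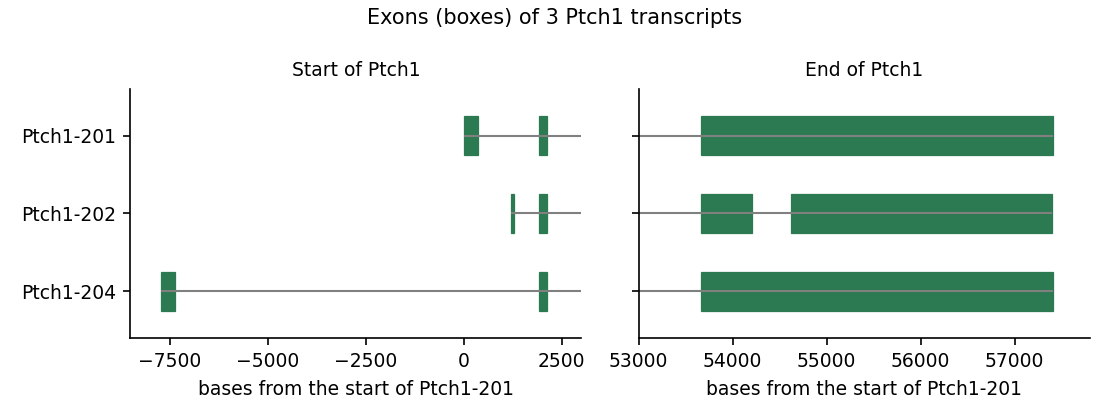
Exons (green boxes) and introns (lines) of Ptch1-201, Ptch1-202 and Ptch1-204 at the start (left) and end (right) of the gene, in bases from the start of Ptch1-201. The 3 first exons differ and join the same second exon, and Ptch1-202 alone has an intron of 419 bases near its end.

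The 250 bases before the start of Ptch1-201 are shown because this is the Ptch1 transcript that differed. They are chr13:63565736-63565985, minus strand, from the RefSeq promoter table on GRCm38.p6, the same assembly as mm10. Capitals mark each CG dinucleotide.
Ptch1-201 upstream: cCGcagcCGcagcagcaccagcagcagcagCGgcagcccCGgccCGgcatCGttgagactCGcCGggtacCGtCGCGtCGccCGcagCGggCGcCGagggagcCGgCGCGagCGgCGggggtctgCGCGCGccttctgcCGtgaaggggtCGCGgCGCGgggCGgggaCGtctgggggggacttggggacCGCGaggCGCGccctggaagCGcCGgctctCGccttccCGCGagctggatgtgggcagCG

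The stretch holds 41 CG dinucleotides and 78.4% G and C. Of 32851 RefSeq promoter windows, 1.09% hold as many CG in the same 250 bases, and the median is 6. The Gli consensus GACCACCCA, searched on both strands (reverse complement TGGGTGGTC), is in none of the windows of Gli2, Gli3, Hhip, Ptch1, Smo and Sufu, the 6 hedgehog genes with a window. Over all windows 0.253% hold it, so a match in 6 windows was unlikely in advance and its absence says little. Each window has 300 bases, 250 of them before the start, and sites elsewhere were not searched. Windows of Shh, Gli1 and Boc were not used here.

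**Figure D3:**
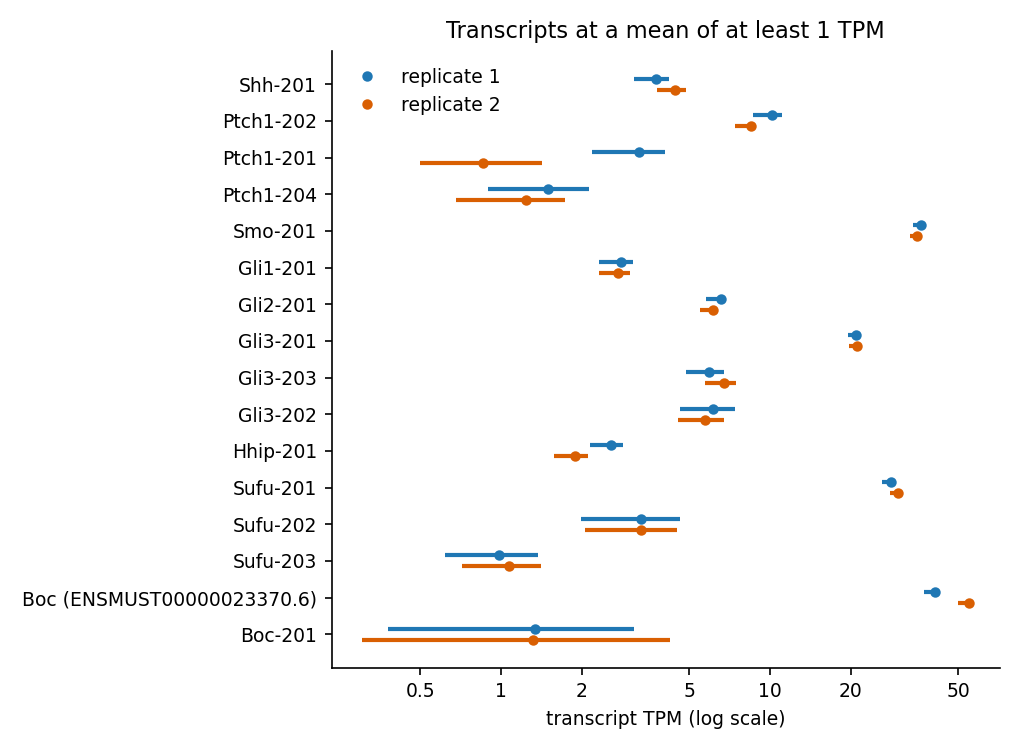
TPM on a log axis of the 16 hedgehog gene transcripts at a mean of at least 1 TPM, with points for the deposited TPM and lines for its interval in replicate 1 (blue) and replicate 2 (orange). Ptch1-201, Hhip-201 and the main Boc transcript have intervals apart, and the transcripts of Gli3 and Sufu overlap between the libraries.

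Across the hedgehog genes, 16 transcripts reached a mean of 1 TPM, and 3 of these had intervals apart between the libraries, Ptch1-201, Hhip-201 and the main Boc transcript. Over all 35918 transcripts at that level the share was 8.06%. The most abundant transcript was the same in both libraries for all 9 genes. Hhip-201, the coding transcript, held 83.3% and 94.3% of Hhip, at 2.57 and 1.88 TPM. The other listed Hhip transcript is short and noncoding and rested on 7.38 and 2.07 counts. Over both transcripts Hhip differed 1.55-fold on TPM and 1.44-fold on counts. The main Boc transcript (ENSMUST00000023370.6) held 96.8% and 97.7% of Boc.

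Sufu, the cytoplasmic protein that binds and restrains Gli proteins, was measured at 33.5 and 35.2 TPM. The libraries overlapped, and the log2 ratio was 0.05 with an interval of -0.02 to 0.13 (exact binomial test, adjusted p = 0.373). Sufu-201 held 84.0% and 84.7% of the gene. Per length, Sufu and Gli3 transcripts were nearly equal, with a ratio of 1.02 in replicate 1 and 1.05 in replicate 2.

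Gli3, the main source of the Gli repressor, was the most abundant Gli gene in both libraries. It was measured at 32.9 and 33.5 TPM, and the libraries overlapped, with a log2 ratio on counts of -0.01 and an interval of -0.08 to 0.05. Gli2, the main activator of the family, was at 7.68 and 7.06 TPM, with a log2 ratio of -0.16 and an interval of -0.30 to -0.02 (exact binomial test, adjusted p = 0.0904). Gli3 held 76.6 ± 1.07% of the summed TPM of the 3 Gli genes, Gli2 17.0 ± 0.982% and Gli1 6.37 ± 0.0865% (SD, n = 2). The SD covers the spread between the libraries only, and without length normalisation the Gli1 share was 3.93%. Gli3 stood at 11.8 and 12.3 times the TPM of Gli1, the family member made mainly where the signal is received.

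Part of the Gli3 level was assigned to transcripts shorter than the full-length form. Gli3-201, the full-length transcript with 15 exons, held 63.3% in replicate 1 and 62.7% in replicate 2, at 20.8 and 20.97 TPM. Gli3-203, annotated as keeping an intron, held 18.1% and 20.2%. Its first exon starts further upstream, at 15463723 against 15463980 in Gli3-201, and ends at the same base. From there it follows Gli3-201 to the end of exon 10 at 15662530 and then runs 988 bases on into the intron. Gli3-202, a shorter coding transcript with 12 exons, held 18.6% and 17.2%. The shares differed little between the pools.

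The 30 bases at the point where the full-length and the intron-keeping forms part show the difference at that end. Both are on chromosome 13, plus strand of mm10, from the GENCODE M21 transcripts. The last 15 bases of exon 10 are in lower case and what follows in capitals, which is exon 11 in Gli3-201 and the start of the intron in Gli3-203.
Gli3-201: gatcagcttgtgcatCATATCAATAATGAC
Gli3-203: gatcagcttgtgcatGTAAGTGGCTGCTGT

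The gene Gm6556 overlaps the start of Gli3 on the other strand and held 58.0 and 66.2 counts. For Gli2, 9 transcripts were listed and Gli2-201 held 85.6% and 86.8%. On posterior means its share averaged 71.2%. The Gli2 level is less certain than its counts. In replicate 1 the deposited TPM of 7.68 lay below its own interval of 7.79 to 10.5 TPM, and the posterior mean, an estimate averaged over the possible assignments of reads, was 9.10 TPM. In replicate 2 the posterior mean was 7.99 TPM.

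The hedgehog genes were then read together against the whole table. A gene was called when its adjusted p in the exact binomial test was under 0.05, its ratio at least 1.5-fold and its mean at least 1 TPM. None of the 9 hedgehog genes was called, against 3.55% of 15199 tested genes at 1 TPM or more. At an unadjusted p under 0.05 in the exact binomial test there were 5 hedgehog genes, against 36.3% of the tested genes. At an adjusted p under 0.05 and any ratio there were 3, with Ptch1 and Hhip lower and Boc higher in replicate 2, against 26.4% of the tested genes. The gene intervals were apart for the same 3, against 15.8% of genes at a mean of at least 1 TPM. With 9 genes, these counts are not a result about the pathway.

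The exact binomial test covers counting error only and compares these libraries, not conditions. In edgeR's negative binomial exact test, which adds the spread between the libraries, no hedgehog gene had an adjusted p under 0.05, against 1.32% of the tested genes. At an unadjusted p under 0.05 in that test there were 2, against 5.72%. The adjusted p was then 0.237 for Ptch1, 0.552 for Hhip and 0.761 for Boc. That test takes its spread from these same libraries, any difference between the pools included.

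**Figure D4:**
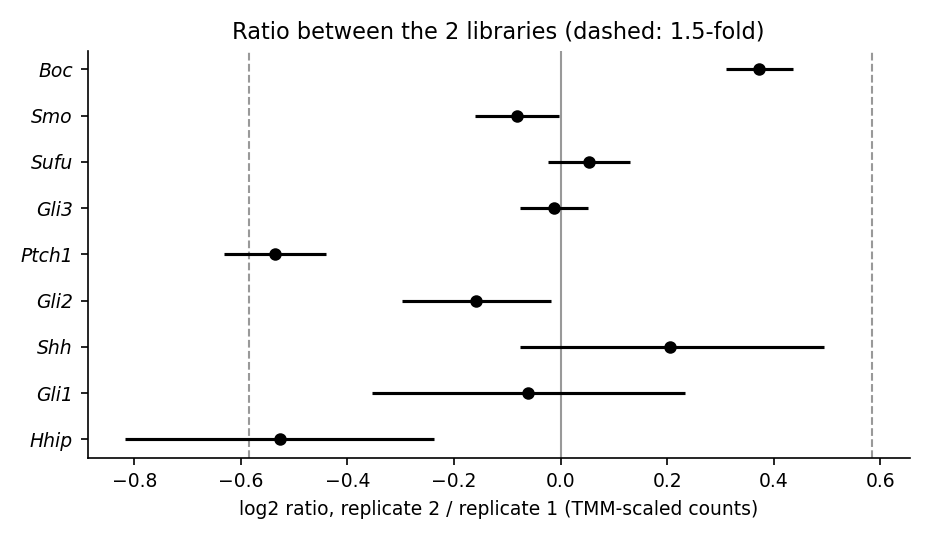
Log2 ratio of replicate 2 to replicate 1 of each hedgehog gene on scaled counts, with lines for the 95% exact binomial interval and dashed lines at 1.5-fold. Ptch1 and Hhip lie at -0.54 and -0.53, Boc at 0.37, and all 9 points lie inside the dashed lines.

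The genes that carry the signal through the cilium and process Gli proteins were all detected and none was called. All 15 genes of the cilium and transduction list were at 1 TPM or more in both libraries, with a median log2 ratio of -0.06, against -0.00 over all tested genes. Kif3a, a motor subunit of intraflagellar transport, was highest at 107.9 ± 12.1 TPM, then Rab23 at 24.7 ± 2.02 TPM, Iqce at 22.6 ± 1.84 TPM and Dync2h1, the retrograde transport motor, at 21.2 ± 2.21 TPM (SD, n = 2). Kif7, the kinesin that controls Gli proteins at the cilium tip, was at 6.05 and 5.95 TPM. All 9 genes of the Gli processing list were likewise detected, with a median log2 ratio of -0.06. The highest were the protein kinase A subunit Prkar1a at 355.9 ± 2.82 TPM, the casein kinase Csnk1a1 at 242.7 ± 16.3 TPM, Spop, an adaptor that marks Gli proteins for degradation, at 163.8 ± 0.163 TPM and Prkaca at 162.1 ± 5.15 TPM.

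Of the floor plate genes, several were higher in replicate 2. All 7 reported here were detected in both libraries, 4 were called higher and 3 were not called, with a median log2 ratio of 0.88 over these 7. Foxa2, the forkhead factor that specifies floor plate, was at 5.36 and 11.5 TPM, a 2.05-fold difference. Corin rose from 2.54 to 7.66 TPM, a 2.95-fold difference, Ferd3l from 1.15 to 3.57 TPM and Spon1, a secreted guidance protein, from 25.9 to 48.2 TPM. Lmx1a and Ntn1 were at 14.3 ± 2.51 and 24.8 ± 5.05 TPM (SD, n = 2) and were not called. On counts they were 1.26-fold and 1.44-fold higher in replicate 2 (exact binomial test, adjusted p = 1.41e-05 and 3.39e-32). The remaining gene, Foxa1, went the other way, at 3.36 and 3.15 TPM, a log2 ratio of -0.13 (exact binomial test, adjusted p = 0.615). Shh, at 3.76 and 4.44 TPM, had a log2 ratio of 0.21 with an interval of -0.08 to 0.49. Which cells of the pools made Shh was not measured.

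Transcription factors of ventral progenitors, which hedgehog signal switches on in nested domains, went both ways. All 6 were detected, 2 were called higher, 1 lower and 3 were not called. Nkx6-2 rose from 13.9 to 22.5 TPM in replicate 2 and Nkx6-1 from 4.57 to 7.23 TPM. Olig2 fell from 9.39 to 5.04 TPM. Nkx2-2 was at 11.5 and 7.65 TPM, 1.46-fold lower on counts (exact binomial test, adjusted p = 8.27e-05), a size close to that of Ptch1 and Hhip. The median log2 ratio of the list was -0.33.

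**Figure D5:**
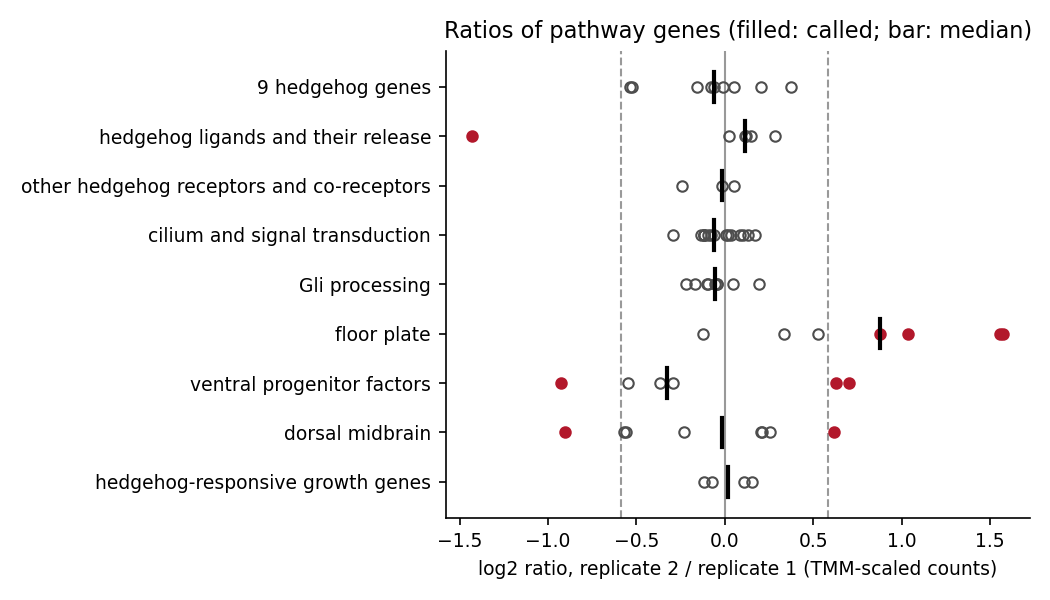
Log2 ratio of replicate 2 to replicate 1 for the 9 hedgehog genes and for the genes of each pathway list at a mean of at least 1 TPM, with filled points for called genes, open points for the others, a bar at each median and dashed lines at 1.5-fold. Calls fall in the floor plate, ventral and dorsal lists and on Scube2, and the cilium and Gli processing lists stay near 0.

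Markers of neighbouring regions and of other cell types also moved between the pools, beside the Ptch1, Hhip and Boc values. The 11 forebrain and hypothalamus markers reported here summed to 201.3 and 116.2 TPM in replicates 1 and 2, with 5 called lower and 5 of the 10 tested not called. Called lower were Pax6, Tbr1, Emx1, Dlx1 and Nkx2-1, a hypothalamic factor. Pax6 had the largest drop, at 60.0 and 17.7 TPM. At an adjusted p under 0.05 and any ratio in the exact binomial test, 9 of the 10 were lower and 0 higher. Over all tested genes 26.4% passed that threshold. The 10 midbrain and isthmus markers summed to 272.6 and 318.9 TPM, with Fgf17 and Cnpy1 called higher and Fgf8 and Wnt1 lower. Cnpy1 made up most of that rise, at 77.7 and 121.6 TPM. The 7 hindbrain markers summed to 32.4 and 25.2 TPM. Only 1 of them, Gbx2, was tested at a mean of 1 TPM or more, at 31.8 and 24.7 TPM. It was lower in replicate 2 but not called (exact binomial test, adjusted p = 5.08e-09).

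Connective tissue and blood markers were higher in replicate 2 in their sums. The 9 mesenchymal and meningeal markers summed to 1118 and 1578 TPM, all 9 with a ratio above 1 and none called. By the exact binomial test 8 of these were higher with an adjusted p under 0.05, and the median log2 ratio of all 9 was 0.375. The 7 endothelial markers summed to 149.0 and 172.7 TPM, the 7 microglial to 94.6 and 119.7 TPM and the 7 red cell genes to 15443 and 18078 TPM, with none called in any of them. At an adjusted p under 0.05 in the same test, 4 endothelial genes were higher and 1 lower, and 4 microglial and 6 red cell genes were higher. The 8 skin, muscle and cartilage markers summed to 125.2 and 190.4 TPM, with Col2a1 and Matn4 called higher. Of these 8, 3 were under 1 TPM in both libraries, the muscle markers among them. Col2a1 made up most of the sum of the 8, at 109.8 and 161.05 TPM. The 5 choroid plexus markers summed to 50.6 and 30.9 TPM, with Ttr and Kcne2 called lower and Aqp1 higher. Ttr accounted for that lower sum, at 38.7 and 13.8 TPM. Of the 4 choroid plexus markers tested at a mean of 1 TPM or more, 2 had a ratio above 1 and 2 below. Radial glia markers summed to 2794 and 2802 TPM and neuron markers to 2083 and 1987 TPM, with none called. At an adjusted p under 0.05, 2 of 7 radial glia markers were higher and 4 lower, and 5 of 6 neuron markers were lower. Over all 15199 tested genes the share at that threshold, at any ratio, was 26.4%. The test covers counting error only, so genes with many counts can pass at small ratios. Median log2 ratios over the tested genes were 0.492 for midbrain and isthmus, -0.563 for forebrain and hypothalamus, 0.217 for endothelium and 0.351 for microglia. They were 0.151 for red cells, 0.559 for skin, muscle and cartilage, -0.621 for choroid plexus, -0.126 for radial glia and -0.098 for neurons. No marker in these lists was at 0 in both libraries. The part of any of these cell types in the Ptch1, Hhip and Boc values was not tested.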

How the data were processed

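RNA from 2 pools of embryonic midbrain was sequenced, 1 library each. Per the file headers, the deposited values are expected counts, which are estimated counts that need not be whole, TPM with an interval and a posterior mean, and, for transcripts, isoform percent, the share of a gene in each transcript. Per the deposited read-me files, the assembly was mm10 and the annotation GENCODE M4. No aligner or quantifier version is stated in these sources. GENCODE M21 named 42462 of 43346 genes. Tests and library sizes leave out spike-ins (4.14% and 3.48% of counts) and rows whose identifier is only a number.

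Counts were rounded and scaled by TMM factors of 0.995 and 1.005 (edgeR 4.0.16, R 4.3.3). Genes with at least 10 counts summed were tested by a two-sided exact binomial test with Benjamini-Hochberg adjustment over all 18939 of them. Log2 ratios had 0.5 counts added. Intervals of ratios are exact binomial at 95% and cover counting error only. The test was checked on simulated counts. Labels call the libraries biological replicates. The hedgehog genes, the 8 pathway lists and the 11 marker lists were chosen with earlier results of these data known. Some genes of the receptor, floor plate and forebrain lists are not reported here, and were taken out after their values were seen. The counts, sums and medians of these lists cover the other genes and would differ with them. In each pathway list the 4 genes with the highest mean TPM and every called gene were to be named, with a name or a count for genes below 1 TPM in each library, and in marker lists only called genes. Kif7, Dhh, Gbx2, Foxa1 and the genes that overlap a hedgehog gene were named outside this rule, after their values were seen. With 2 libraries of 1 group, no gene could be named for a pattern like that of a hedgehog gene. Alternatives used DESeq2 1.42.0 size factors, total counts, other thresholds, posterior means and each library alone. Python 3.11.15, numpy 2.4.6, pandas 2.3.3 and scipy 1.17.1 were used.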

Additional observations from a re-analysis of the deposited data

How the results depend on the processing

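Of 152 alternative values, 122 kept their direction and their side of the threshold or stayed within the replicate spread. Leaving out replicate 1 or replicate 2 gave 22 of these each. For levels, Gli shares and transcript shares that outcome was fixed, as each of 2 values lies within the SD of their mean. The 9 ratios with 5 counts added reuse the same p-values. Rescaling TPM over nuclear protein-coding genes raised every level, and past the spread to 5.18 TPM for Shh, 16.8 for Ptch1, 45.3 for Smo, 3.49 for Gli1, 9.33 for Gli2, 41.96 for Gli3, 43.4 for Sufu and 62.2 for Boc, by construction. Posterior means gave 34.8 TPM for Smo, 2.69 for Gli1, 8.55 for Gli2 and 32.5 for Gli3, and Gli shares of 6.14% for Gli1, 19.5% for Gli2 and 74.3% for Gli3. They also moved the top transcript share to 71.2% for Gli2, 62.4% for Gli3, 82.1% for Sufu and 96.0% for Boc. Without length normalisation the shares were 3.93% for Gli1 and 79.1% for Gli3. With edgeR's negative binomial test, Ptch1 (-0.54), Hhip (-0.53) and Boc (0.37) lost an adjusted p under 0.05, as the test adds spread beyond counting. With total counts Gli3 changed sign, to 0.0024. Counts of called genes were 835 with a minimum of 0.1 TPM, 1283 at the lower fold threshold, 213 at 2-fold and 201 with the negative binomial test, against 539, and 3 hedgehog genes were called at that lower threshold, Ptch1, Hhip and Boc. The order of the 36 gene pairs held for 36 and 35 pairs in a single library, 36 with posterior means and 32 without length normalisation. The ratios between libraries have no check by leaving out a library, since each side is 1 library. Depth limits Shh, Gli1 and Hhip most, with 173 to 258 counts a library.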

Other observations

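Levels of growth genes and dorsal genes were also read, and their link to hedgehog signal was not tested. Ccnd1 and Ccnd2, cyclins that start the cell cycle, were at 218.1 ± 20.6 and 217.6 ± 9.46 TPM and Mycn, a proliferation factor of neural progenitors, at 79.4 ± 5.18 TPM (SD, n = 2). With Bcl2 at 9.14 ± 0.311 TPM, all 4 genes of this list were detected and none was called. Of 9 dorsal midbrain genes, 8 were at 1 TPM or more in both libraries, led by Msx1 at 77.5 ± 8.90 TPM, Pax3 at 47.1 ± 5.59 TPM, Msx2 at 24.6 ± 7.70 TPM and Zic2 at 14.3 ± 3.73 TPM, and Gdf7 was under 1 TPM in both. Msx2 was called higher and Wnt3a lower in replicate 2. At an adjusted p under 0.05 and any ratio in the exact binomial test, 4 dorsal genes were higher and 3 lower, against 26.4% of all tested genes. Zic2 was 1.49-fold lower on counts (exact binomial test, adjusted p = 6.99e-11), just under the threshold for a call.

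Some hedgehog transcripts rested on few reads. Gli2-206 had 25.8 counts in replicate 1 and 2.91 in replicate 2, with intervals of 0.394 to 1.63 and 0.005 to 0.391 TPM. Of the 34 transcripts, 8 were listed at 0 TPM in both libraries. The pseudogene Gm13717 lies within Smo and was at 4.03 and 4.53 TPM, and A930032L01Rik lies within Ptch1 and was at 1.51 and 1.72 TPM. Arhgap9, which overlaps the end of Gli1, was at 0.660 and 0.910 TPM.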
